A study of Mus musculus with 8 samples.

Results

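The miR-103 and miR-107 microRNAs were followed through small RNA libraries of mouse myoblasts, proliferating muscle precursors that later fuse into fibres. Their 3 precursors, mmu-mir-103-1, mmu-mir-103-2 and mmu-mir-107 (below without the species prefix), were taken by name from the 1181 precursors of the deposited table, by a rule that reads names and not values. All 3 were among the 359 precursors compared, those that reached a linear value of 10 in 4 or more of the 8 libraries. The groups were myoblasts of old (n = 4) and of young (n = 4) C57BL/6J mice, with no treatment or engineered allele in the labels and no age beyond those words. Each library is labelled with a mouse number of its own, so the p-values below measure the spread between animals as labelled, and the libraries are called old 1 to old 4 and young 1 to young 4.

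miR-103 and miR-107 lie in introns of pantothenate kinase genes, whose enzymes catalyse the first, rate-limiting step of coenzyme A synthesis. The mature microRNAs guide Argonaute to messenger RNAs that pair with the seed near their 5′ end. They are known for lowering insulin sensitivity in liver and fat of obese mice, with caveolin-1 as a target, and they also repress Dicer. miR-103 has in addition been used as a reference microRNA in quantitative PCR, because its level varies little between many samples.

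The mature sequences show which reads the members can share, so they are given first, from RefSeq (GRCm38.p6), with the seed (bases 2 to 8) in capitals. All 3 members were matched there.
miR-103-3p: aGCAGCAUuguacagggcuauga
miR-107-3p: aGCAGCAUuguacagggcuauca
Counted from 1 at the 5′ end, these 23-base sequences differ by 1 substitution, G22C from miR-103-3p to miR-107-3p. Among 1674 distinct mature mouse sequences in the RefSeq table, 2 carried the seed GCAGCAU, and they were these 2. The whole miR-103-3p sequence occurred in 2 of 1005 hairpins (mir-103-1 and mir-103-2), and its first 21 bases occurred in 3, mir-107 included. A read of those 21 bases can therefore not be assigned among the 3 precursors by its sequence, and a full-length miR-103-3p read cannot be assigned between the mir-103 copies.

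The opposite arms carry the differences by which copies could be told apart. They are shown with the bases that differ among the 3 in capitals.
miR-103-1-5p: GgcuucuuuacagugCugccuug
miR-103-2-5p: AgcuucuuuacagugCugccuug
miR-107-5p: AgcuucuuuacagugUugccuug
The copies of miR-103 differ there by G1A (from miR-103-1-5p to miR-103-2-5p), and miR-107-5p differs from miR-103-2-5p by C16U. The deposited values are per precursor and do not separate the arms.

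The hairpins show how far the shared stretch runs, with the 3p mature sequence in capitals.
mir-103-1: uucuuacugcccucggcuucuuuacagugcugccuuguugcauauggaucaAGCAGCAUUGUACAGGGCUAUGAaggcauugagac
mir-103-2: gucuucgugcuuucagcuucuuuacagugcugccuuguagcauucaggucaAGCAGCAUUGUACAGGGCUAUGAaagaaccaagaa
mir-107: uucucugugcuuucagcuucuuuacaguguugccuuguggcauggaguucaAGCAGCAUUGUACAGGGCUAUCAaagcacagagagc
The longest run shared by the mir-103 hairpins was 27 bases, and each of them shared 24 with mir-107. In global alignments mir-103-1 and mir-103-2 were identical at 69 of 86 positions (80.2%), mir-103-1 and mir-107 at 70 of 87 (80.5%), and mir-103-2 and mir-107 at 73 of 87 (83.9%).

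The 3 loci have the same arrangement (GRCm38, the build of mm10; host genes from GENCODE). mir-103-1 lies on chromosome 11 (35782396 to 35782481, plus strand) in intron 5 of Pank3. mir-103-2 lies on chromosome 2 (131288052 to 131288137, plus strand) in intron 5 of Pank2. mir-107 lies on chromosome 19 (34820687 to 34820773, minus strand) in intron 5 of Pank1, or intron 4 of its transcript with 5 introns. Each is on the strand of its host and overlaps no exon of its basic protein-coding transcripts. The hairpins begin 688, 454 and 326 bases after the upstream exon, in introns of 1740, 5801 and 7282 bases. Host messenger RNA was not measured in these small RNA libraries.

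The values are log2 of a linear abundance whose low values step as reads per kilobase of precursor and library size do. On that reading the libraries held 25.1 to 39.5 M reads, with every young library (29.9 M or more) above every old one (27.9 M or less). mir-486 and mir-3107, which repeats its reads, dominate the table: mir-3107 alone took 31.8% to 40.7% of the summed linear values in old libraries and 28.4% to 42.8% in young 1 to 3, but 19.1% in young 4. Of 6 muscle markers 4 were compared, while mir-1a-1 and mir-1a-2 were under the filter. mir-206 was at 15.90 ± 0.17 among old and 15.72 ± 0.72 among young libraries (log2, SD, n = 4 each). Of the 4 compared, mir-206 alone had a higher old mean and 3 had a lower one, with a median log2 difference of -0.14. The 6 summed to 16.18 to 16.64 in old and 15.16 to 17.23 in young libraries. Red cell and leukocyte markers summed to 0.0 in old libraries and to at most 0.89 in young ones (log2), with mir-144, mir-142a and mir-223 at 0 in all 8. Endothelial markers summed to 4.41 to 5.51 in old and 4.13 to 6.28 in young libraries, and the 5 fibroblast and smooth muscle markers to 15.36 to 15.84 and 14.58 to 15.65. Old means were lower for the 2 endothelial markers and higher for these 5, against 165 higher of all 359 precursors. The median log2 difference of the 5 was 0.29, against -0.05 over all precursors, and 0 of them passed by limma. These are bulk cells, so more cells of a type and more RNA per cell cannot be told apart.

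The miR-103 precursors did not differ between old and young myoblasts beyond the spread between animals. The precursor mir-103-1, the copy in Pank3, measured 10.55, 10.82, 10.90 and 11.19 (deposited log2) in old 1 to old 4. In young 1 to young 4 it measured 10.62, 10.99, 10.37 and 11.77. The highest and the lowest value were both in young libraries, which enclosed all the old ones. The group means were 10.87 ± 0.26 (old) and 10.94 ± 0.61 (young, SD, n = 4 each). Old minus young was -0.07 on the log2 scale (SE 0.37, 95% interval -0.90 to 0.75, limma adjusted p = 0.995), and the two-sided exact permutation p was 0.857. The interval corresponds to 0.537 to 1.68 times the young level.

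The copy in Pank2, mir-103-2, ran almost parallel to it. Its deposited log2 values were 10.62, 10.89, 11.02 and 11.24 across old 1 to 4, and 10.72, 11.01, 10.40 and 11.85 across young 1 to 4. Again young 4 was the highest and young 3 the lowest library. The means were 10.94 ± 0.26 (old) and 11.00 ± 0.62 (young, SD, n = 4 each), which differ by -0.05 (SE 0.37, interval -0.88 to 0.78, limma adjusted p = 0.995, exact permutation p = 0.914). The sign of both copies' differences rested on young 4: without that library they were 0.20 and 0.23. It also turned without old 1, to 0.032 and 0.055. The median difference over all 359 precursors moved as well, from -0.05 to 0.17 without young 4 and to 0.03 without old 1.

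mir-107, the member in Pank1, was the least abundant of the 3 in every library. Its deposited log2 values were 9.12, 9.24, 9.29 and 10.07 across old 1 to 4, and 8.68, 9.64, 8.88 and 9.80 across young 1 to 4. Old 4 was the highest and young 1 the lowest library, and the groups overlapped. Its means were 9.43 ± 0.43 (old) and 9.25 ± 0.55 (young, SD, n = 4 each), which differ by 0.18 (SE 0.39, interval -0.70 to 1.06, limma adjusted p = 0.995, exact permutation p = 0.629). Without old 4 the difference was -0.033, and without young 1 it was -0.01. The median over all precursors was then -0.16 and -0.17. Without young 4 the difference was 0.36, and after rescaling to a sum that leaves out mir-486 and mir-3107 it was 0.38, with a median over all precursors of 0.14.

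**Figure D1:**
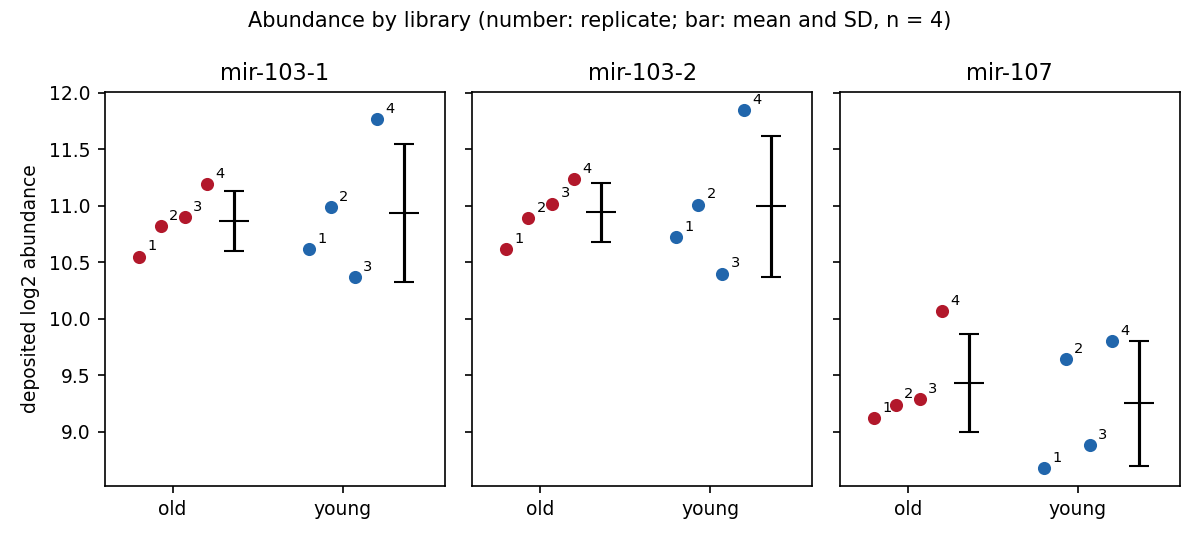
Deposited log2 abundance (y axis) of mir-103-1, mir-103-2 and mir-107 in 4 old (red) and 4 young (blue) libraries, with the replicate number beside each point and the mean and SD beside each group. Old and young points overlap for each member, and young 4 is the highest library for both mir-103 copies at 11.77 and 11.85.

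None of the 3 members passed an adjusted p of 0.05. Across the 359 precursors limma called 0 in either direction (0.0%), with 4 at an unadjusted p under 0.05 (1.11%) and 3 whose old and young libraries did not overlap (0.836%). The members are in none of these groups. The median old minus young log2 difference over all 359 was -0.05, with a median SE of 0.50, against SEs of 0.37 to 0.39 for the members. With 4 against 4 libraries the smallest exact p is 0.0286.

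Counting error was small for the 3 members. The recovered reads numbered 3602 to 11849 for mir-103-1, 3781 to 12524 for mir-103-2 and 1068 to 3060 for mir-107. Counting alone gives an SE of 0.013 to 0.044 on the log2 scale, far under the SDs between libraries. Reads are not independent molecules, so these SEs cover counting error only. Among the 359 precursors the mir-103 copies ranked 81st to 110th by abundance in the single libraries and mir-107 122nd to 152nd.

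The mir-103 copies were listed at nearly the same level. mir-103-2 was above mir-103-1 in 8 of 8 libraries, by 0.07, 0.07, 0.12 and 0.05 across old 1 to 4 and by 0.10, 0.02, 0.03 and 0.08 across young 1 to 4 (log2). That is 1.4% to 8.67% on the linear scale. If the reads of the copies were counted independently, 5 of the 8 differences exceed 1.96 counting SEs. The mean excess was 0.08 ± 0.03 for old and 0.06 ± 0.04 for young animals (SD, n = 4 each, exact permutation p = 0.486).

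Near equality was found for some pairs of precursors with a mature sequence in common, but not for most. Of 28 compared pairs that share 1, corrected for precursor length, 8 (28.6%) stayed within 0.12 in every library. That limit is the largest difference of the mir-103 pair itself, which is 1 of the 8. The median of the largest differences over the 28 pairs was 0.66. The closest were let-7c-1 and let-7c-2, within 0.02, and the mir-16 copies stayed within 0.10. The widest were mir-92a-1 and mir-92a-2, up to 5.82 apart, and mir-29b-1 and mir-29b-2, up to 4.72 apart. How reads with more than 1 matching precursor were counted is not given in the sources used here, so the separate output of the Pank3 and Pank2 loci cannot be read from these values.

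mir-107 was below the mir-103 copies in 8 of 8 libraries. Its difference from their mean was -1.47, -1.62, -1.67 and -1.14 across old 1 to 4, and -1.99, -1.36, -1.50 and -2.01 across young 1 to 4 (log2, per length). The lowest 2 were young 1 and young 4 and the highest was old 4, with the other 5 between them. The means were -1.47 ± 0.24 (old) and -1.72 ± 0.33 (young, SD, n = 4 each), a difference of 0.24 that did not exceed the spread (two-sided exact permutation p = 0.257). It was 0.13 without old 4, 0.14 without young 4, 0.15 without young 1, and 0.03 when old 4 and young 4 were both left out. In linear terms mir-107 stood at 36.4 ± 6.24 per 100 of a mir-103 copy among old and 31.1 ± 7.16 among young libraries (SD, n = 4 each). If the reads of miR-103-3p were divided between its copies, mir-107 was at 12.4 to 22.6 per 100 of their sum over the 8 libraries. If they were listed under both, the range was 24.8 to 45.2. Both ranges take the mir-107 value as reads of its own. A read of the first 21 bases fits all 3 precursors, so neither range bounds the ratio.

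**Figure D2:**
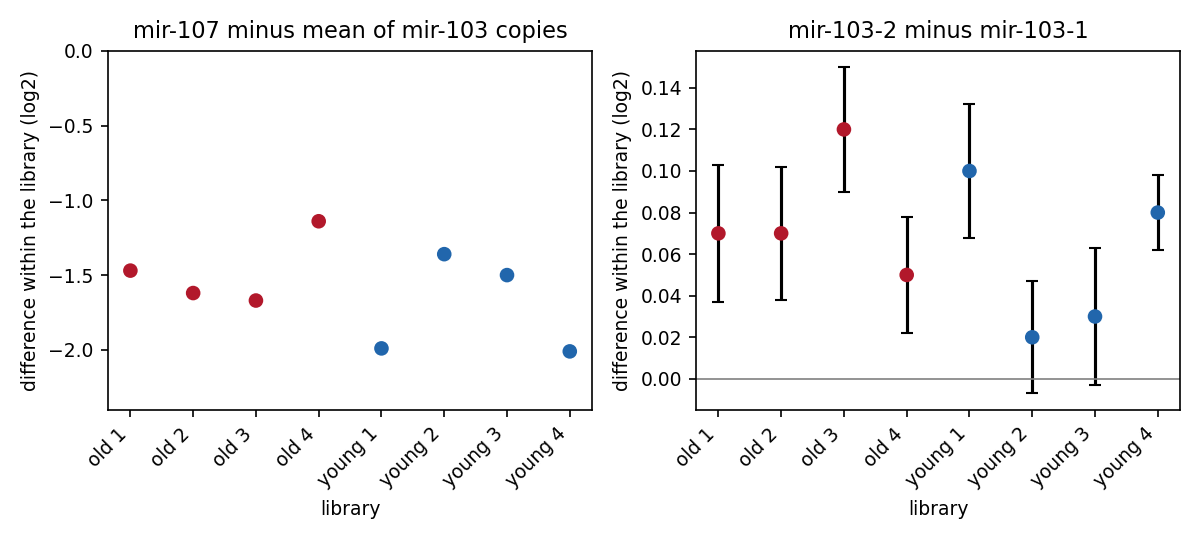
Difference within each library (log2, y axis) of mir-107 from the mean of the mir-103 copies (left) and of mir-103-2 from mir-103-1 (right, with bars of 1 counting SE), for old (red) and young (blue) libraries. mir-107 lies 1.14 to 2.01 below the copies with overlapping groups, and the copies differ by 0.02 to 0.12.

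From library to library the members moved broadly, but not exactly, with the whole table. The offset of a library, the median over precursors of its log2 value against the 8-library mean, was -0.30, -0.10, -0.01 and 0.34 in old 1 to old 4. In young 1 to young 4 it was -0.35, 0.07, -0.21 and 0.56. mir-103-1 stood at 0.29 above its own mean in old 4 and 0.87 above in young 4, the 2 libraries with the highest offsets. mir-103-2 stood at 0.27 and 0.88 there, and mir-107 at 0.73 and 0.46. Young 4 is also the library with the lowest share of mir-3107 (19.1%). The part of that share in the members' values was not tested. In young 1 to young 3 mir-107 stood at -0.66, 0.30 and -0.46. In young 3 mir-103-1 and mir-103-2 stood at -0.53 and -0.57. Each of these values is larger in size than the offset of its library.

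**Figure D3:**
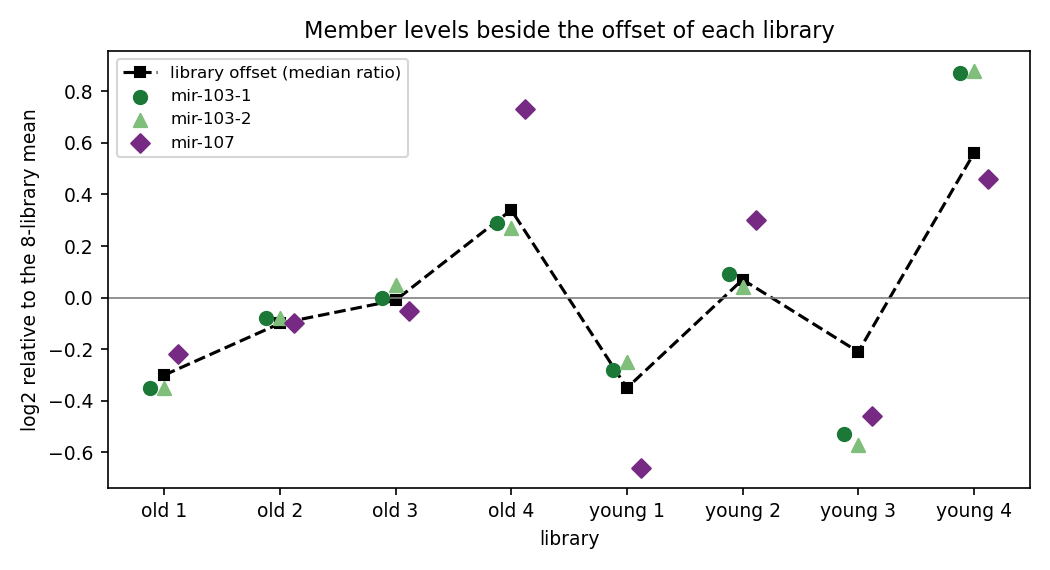
Level of each member relative to its 8-library mean (log2, y axis) in each library (x axis), with the median-ratio offset of the library as black squares joined by a dashed line. The mir-103 copies lie within 0.10 of the offset in all libraries but young 3 and young 4.

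With each library's offset taken out (median-ratio rescaling), the mir-103 precursors were among the steadiest in the table. On the deposited scale 56, 62 and 78 of the 359 precursors had a smaller SD over the 8 libraries than mir-103-1, mir-103-2 and mir-107. After rescaling the SD of mir-103-1 was 0.17, from 0.44, and 2 precursors had a smaller one (0.557%). That of mir-103-2 was 0.19 with 7 below it, and that of mir-107 0.23 with 15 below it (4.18%), against a median SD of 0.52 over all precursors. Over the 218 precursors with a mean linear value of at least 100 the median SD was lower, 0.42. All of the 2, 7 and 15 precursors below the members were among these 218. In the old libraries rescaled mir-103-1 was at 10.85, 10.92, 10.91 and 10.85, and in young ones at 10.97, 10.92, 10.58 and 11.21. The old values thus lay inside the young range, with SDs of 0.04 and 0.26. This was noticed in the data and is a description. By TMM 4, 8 and 17 precursors had smaller SDs than mir-103-1, mir-103-2 and mir-107, but by quantile normalization 33, 39 and 92 had. Leaving out single libraries gave 0 to 13 for mir-103-1, 1 to 20 for mir-103-2 and 10 to 37 for mir-107, the highest each time without young 2.

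The rescaled old minus young differences were also small. They were -0.04 (interval -0.45 to 0.37) for mir-103-1, -0.02 (-0.45 to 0.41) for mir-103-2 and 0.21 (-0.27 to 0.69) for mir-107, with a limma adjusted p of 0.972 for each. On the linear scale these intervals run from 0.731 to 1.29, 0.732 to 1.33 and 0.831 to 1.62 times the young level.

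mir-107 and the mir-103 copies varied together on the deposited scale. Over the 8 libraries the mean of the copies and mir-107 had a Pearson r of 0.79 (exact permutation p = 0.0189) and a Spearman rho of 0.90 (exact permutation p = 0.00456), and r was 0.89 without young 3 and young 4, the libraries farthest from the median. After median-ratio rescaling r was -0.01 (exact permutation p = 0.971) and rho -0.43 (exact permutation p = 0.299), with r at -0.87 over the 6 libraries left without young 3 and young 4. On the deposited scale all precursors of a library share its offset, which the permutation tests do not take into account. Over all other precursors the median r there was 0.52 with the copies and 0.48 with mir-107. By sequence the members can also share reads, but how such reads were counted is not given. Adjusted over the 2 scales, deposited and rescaled (Benjamini-Hochberg), the exact permutation p was 0.0378 and 0.971 for r and 0.00912 and 0.299 for rho.

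The precursors most like the mir-103 copies over the 8 libraries were of the mir-30 family. On the deposited scale they were mir-30a (r = 0.97), mir-30f, mir-30e and mir-30c-2 (0.96 each) and mir-30c-1 (0.95), against a median r of 0.52 over all precursors. Leaving out single libraries gave 0.94 to 0.99 for mir-30a. mir-30e and mir-30f had identical values in every library, so they are not separate measurements. mir-30a was at 14.81, 14.81, 15.15 and 15.85 across old 1 to 4 and at 14.83, 15.36, 14.45 and 16.39 across young 1 to 4, with the same highest and lowest libraries as mir-103-1. The endothelial marker mir-126a also ran with the copies (r = 0.94), at a low level of 3.64 ± 0.47 among old and 3.71 ± 0.99 among young libraries (SD, n = 4 each). Its r was 0.82 without young 4, and after median-ratio rescaling 0.63, or 0.12 without young 4. Its part in the level of mir-103 was not tested. After median-ratio rescaling mir-30a remained among the closest 5 (r = 0.79, or 0.59 without young 4), behind mir-29b-1 and mir-6516 (0.85 each) and mir-5121 (0.83), with a median over all precursors of -0.01.

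The 5 precursors closest to mir-107 were others. They were mir-106b and mir-1947 (r = 0.97 each) and mir-199b, mir-181d and mir-29a (0.96 each), against a median of 0.48. The sets were not separate on the deposited scale. With the mir-103 copies mir-29a, mir-181d and mir-106b had an r of 0.89, 0.85 and 0.83, and mir-199b and mir-1947 0.70 and 0.66. With mir-107 the r of mir-30a, mir-30e, mir-30c-2 and mir-30c-1 was 0.85, 0.83, 0.80 and 0.77. mir-106b, of a cluster linked to proliferation, was at 10.52, 10.46, 10.64 and 11.47 across old 1 to 4 and at 10.03, 10.94, 10.42 and 11.44 across young 1 to 4. As for mir-107, old 4, young 4 and young 2 were the high libraries and young 1 the lowest. After rescaling mir-1947 (0.94), mir-199b (0.87), mir-106b (0.83) and mir-181d (0.83) were still among the closest 5. These correlations, over 8 libraries, are descriptions without a test.

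miR-103 and miR-107 belong to a wider group in which the bases AGCAGC stand at the start of the mature sequence, beginning at base 1 in miR-103 and miR-107 and at base 2 in the others. The sequences of its abundant members show the shifted seed, again in capitals (bases 2 to 8).
miR-15b-5p: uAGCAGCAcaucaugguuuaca
miR-16-5p: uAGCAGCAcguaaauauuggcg
miR-322-5p: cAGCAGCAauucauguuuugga
miR-503-5p: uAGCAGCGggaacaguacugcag
In RefSeq, 13 of 1674 distinct mature sequences (0.777%) had AGCAGC at base 1 or 2. They include miR-6342, miR-6353 and miR-6419, whose precursors are not among the 13 listed precursors below. The group includes microRNAs known to repress cell cycle genes, and miR-322 and miR-503 are induced when myoblasts differentiate.

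No precursor of this group passed between old and young myoblasts. Of 13 listed precursors 10 were compared, and 0 of the 10 passed in either direction (limma, 0.0% of all 359). The median log2 difference was 0.14 over the 10, or 0.15 over the 7 outside miR-103 and miR-107, against -0.05 over all precursors. Old means were above young ones for 7 of these 7, against 165 of all 359. The difference was only 0.03 for mir-15b and 0.04 for mir-322. The 7 are not independent, as mir-16-1 and mir-16-2 are copies of the same microRNA. mir-322 and mir-503 lie close together on chromosome X, and mir-15a and mir-16-1 on chromosome 14. Without old 4 the count was 3 of 7 (118 of 359 over all), with a median of -0.08 against -0.16 over all precursors. With array weights it was 4 of 7 (184 of 359 over all). mir-195a, mir-195b and mir-497b were under the filter, and mir-195b was at 0 in all libraries.

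Within the group, mir-15b had the highest mean and the mir-103 copies came next, less than 1 SD of mir-15b below it. mir-15b was at 11.75 ± 0.94 (old) and 11.71 ± 0.79 (young), from 10.71 in old 1 to 12.95 in old 4. mir-16-1, which is processed from the Dleu2 transcript, measured 9.40 ± 0.94 and 9.27 ± 0.55, and mir-16-2 measured 9.34 ± 0.92 and 9.19 ± 0.52, close to mir-107. mir-322 measured 9.20 ± 0.24 and 9.15 ± 0.95 (SD, n = 4 each throughout). The means of mir-107, the mir-16 copies and mir-322 lay within their SDs of each other. Over the libraries mir-16-1 had an r of 0.77 with the mir-103 copies, and mir-322 and mir-503 had -0.69 and -0.81. In young 4, where mir-103-1 was highest, mir-322 and mir-503 were at their lowest, 7.89 and 6.95. Without young 4 the r of mir-322 and mir-503 were -0.11 and -0.30, so the inverse relation rested on that library, while that of mir-16-1 was 0.80. After rescaling the values of mir-16-1, mir-322 and mir-503 were 0.21, -0.71 and -0.77 with all libraries. Without young 4 they were 0.14, -0.29 and -0.43.

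MicroRNAs linked to insulin action or to glucose and lipid metabolism did not pass either. Of 12 listed precursors 8 were compared and 0 passed (limma, 0.0% of all 359). Old means were higher for 5 and lower for 3, against 165 and 194 of all 359, with a median log2 difference of 0.06. The median was -0.15 without old 4 and 0.43 without young 4, against -0.16 and 0.17 over all precursors. Under the filter, mir-33, in an intron of the sterol regulator gene Srebf2, was at 2.51, 3.41, 3.39 and 4.25 across old 1 to 4 and at 3.04, 1.66, 2.0 and 1.56 across young 1 to 4. The groups overlapped (3.39 ± 0.71 and 2.06 ± 0.68, SD, n = 4 each, exact permutation p = 0.0571), and with no filter it had a limma adjusted p of 0.982. mir-378a, in an intron of the coactivator gene Ppargc1b, was at 16.99 ± 0.34 (old) and 17.14 ± 0.13 (young). mir-143, which lowers insulin signalling in obese mouse liver, measured 15.20 ± 0.31 and 14.79 ± 0.54. mir-29a measured 12.65 ± 0.41 and 12.46 ± 0.75, and mir-34a, a p53 target that represses Sirt1, 11.80 ± 0.42 and 11.70 ± 0.76 (SD, n = 4 each). mir-143 is also among the fibroblast and smooth muscle markers. On the per-length scale the mean levels of all 4 were above those of mir-103. mir-802, a microRNA of obese liver, was at 0 in all 8 libraries.

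**Figure D4:**
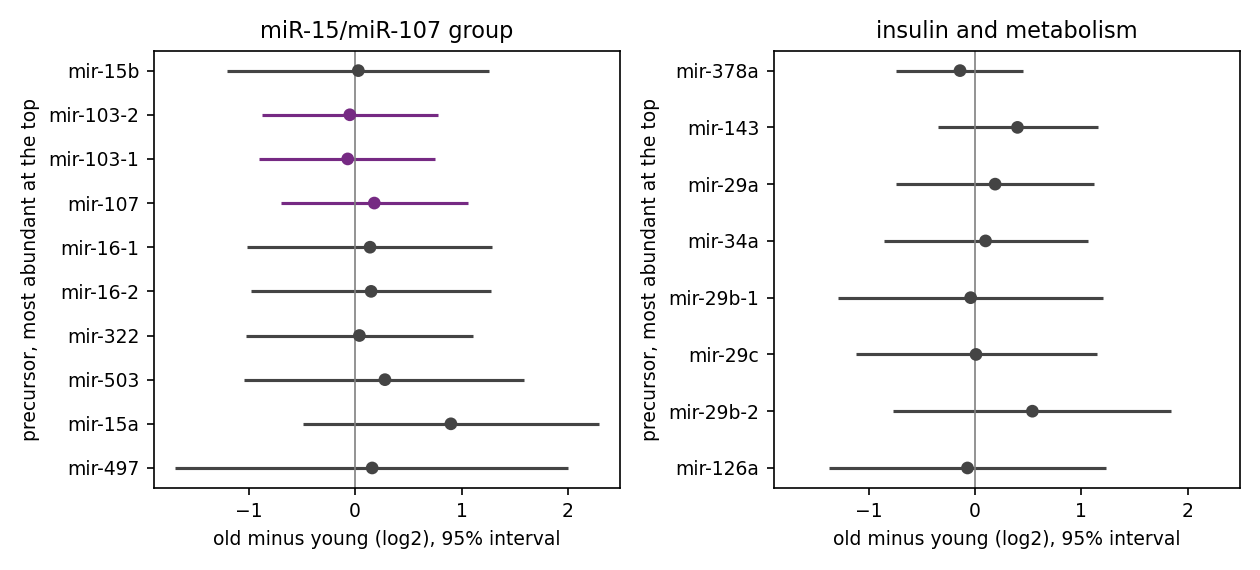
Old minus young log2 difference (x axis, points) with its 95% interval (lines) for the 10 compared precursors of the miR-15/miR-107 group (left, members in purple) and 8 linked to insulin action or metabolism (right), ordered by abundance. Every interval crosses 0, and mir-15a has the largest difference at 0.90.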

How the data were processed

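The authors deposited log2 values with 2 decimals, floored at 0, for 1181 precursors in 8 libraries. BWA and mm10 are named, with no version or role, per the submitters' processing notes; the sources used here give no normalization, counting rule or treatment of multi-mapped reads. Library sizes come from the steps of low values (up to 12 reads): 98.4% to 100.0% of 109 to 215 values per library fell within 0.1 of a whole read. limma 3.58.1 (R 4.3.3, eBayes with trend) was run on the deposited values of 359 precursors, with Benjamini-Hochberg adjustment over all of them, a threshold of 0.05 and no covariate; exact permutation tests used 70 arrangements. The rule for the members reads names only, but the members and the lists (the miR-15/miR-107 group, metabolic microRNAs, cell markers) were chosen with earlier results of these data known. Named precursors are the members, the 4 most abundant of each list and the 5 most alike by Pearson r; mir-503, mir-15a, mir-802, mir-33, mir-126a, the copy pairs and those named after rescaling were chosen after their values were seen. The lists' mir-497a and mir-142a stand as mir-497 and mir-142 in the file. Python 3.11.15, scipy 1.17.1 and matplotlib 3.10.9 did the rest. Alternatives were a pseudocount of 10, other filters, rescalings and variance models, a replicate block and leaving out libraries.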

Additional observations from a re-analysis of the deposited data

Results flagged for a closer look

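Among 22 named precursors and differences (44 groups of 4 libraries), 2 groups held a library set apart from the other 3 by more than 0.829 of the group's range, where chance flags about 1 group in 20 (5%). In both it was old 4. mir-29a was at 13.26 in old 4 against 12.39, 12.47 and 12.47 in the other old libraries. mir-199b was at 11.03 there against 10.10, 10.22 and 10.16. The count of 2 among 44 is near the chance share. Both are among the 5 precursors picked for their likeness to mir-107, which was also highest in old 4 without passing that limit. A high library in common with mir-107 therefore follows from how they were picked and is no further observation.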

How the results depend on the processing

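No member passed an adjusted p of 0.05 under any of the 20 alternatives run (adjusted p from 0.801 to 1.0 over the 3), but sizes and signs moved. The difference of mir-103-1 turned to 0.093 by quantile normalization, 0.10 with array weights, 0.12 after rescaling to a sum that leaves out mir-486 and mir-3107, 0.19 without old 3 and young 4 and 0.10 without old 4 and young 4. That of mir-103-2 turned to 0.0021 by TMM, 0.10 by quantile normalization, 0.13 with array weights, 0.14 by the same sum, and 0.21 and 0.13 without the same pairs of libraries. mir-107 kept its sign at 0.38 by that sum and 0.41 without old 3 and young 4. Leaving out single libraries gave -0.26 to 0.20 for mir-103-1, -0.25 to 0.23 for mir-103-2, -0.033 to 0.36 for mir-107 and 0.13 to 0.36 for mir-107 against mir-103, and 0 calls. The cause was not tested. Over all 359 precursors, 33 passed without old 3 and young 4, against 0 with all libraries, and none of the 33 was a member; those libraries were picked on other microRNAs' values. The sum and the pairs were chosen after seeing the data. The sum moved the median difference of all precursors by 0.20 and quantile normalization by 0.14.

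With the replicate block the differences were -0.073, -0.053 and 0.18 with adjusted p of 0.947, 0.974 and 0.939, and 0 of 359 passed, with 39 at an unadjusted p under 0.05 against 4. For mir-107 against mir-103 the exact paired p was 0.50, where 4 pairs can give no p below 0.125. Deviations of same-numbered libraries correlated at -0.06, 0.43, 0.66 and 0.58, and 6 of 8 libraries correlated best with their own number. This is a hint from the data that libraries 2 to 4 share something by number. The labels name no pairing and the first pair did not correlate, so the unblocked fit was kept.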

Other observations

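After median-ratio rescaling the smallest SDs over the 8 libraries were those of mir-484 (0.14), mir-652 (0.16), mir-103-1 (0.17), let-7d (0.17) and mir-92a-2 (0.18). mir-191, often used as a reference microRNA beside miR-103, had an SD of 0.32, with 64 of the 359 precursors below it. On the deposited scale the order turned: mir-191 had an SD of 0.42 with 45 precursors below it, against 0.44 with 56 and 62 below for the mir-103 copies. These were chosen after their values were seen, and no test was made.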
